A study of Mus musculus with 9 samples.

Results

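Integrins and cell adhesion molecules were described in RAW264.7 cells through 9 genes, namely the ligands Icam1 and Vcam1, the hyaluronan receptor Cd44, the integrin alpha subunits Itga4, Itga5, Itgal and Itgav, and the integrin beta subunits Itgb1 and Itgb2. The 9 genes were taken by symbol from a table of 54532 genes, and all 9 were found in it once each. Of the 9, 8 passed a filter on low values (FPKM, the reads per gene scaled to gene length and library size, of at least 1 in at least 3 libraries), which left 11585 genes for testing. RAW264.7 is a single mouse macrophage line, labelled as wild type and as derived from ascites. The 3 groups of 3 RNA-seq libraries were untreated control cells, cells exposed for 6 h to LPS, a component of the bacterial outer membrane, at 1 μg/ml, and cells exposed for 6 h to the same dose of LPS together with G-CDs at 400 μg/ml. G-CDs are carbon dots, small carbon-based nanoparticles, prepared from Glycyrrhiza (licorice). The titles of the last group name G-CDs while its treatment label names LPS alone, and no group received G-CDs without LPS. The labels do not say whether the libraries of a group came from separate cultures, so the p-values below measure only the spread between these libraries.

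Integrins are pairs of 1 alpha and 1 beta subunit that span the cell membrane, and a subunit without its partner does not reach the surface. The Itgb2 subunit pairs with Itgal to form LFA-1 and with Itgam to form Mac-1, both of which bind ICAM-1 on other cells, while Itgb1 pairs with Itga4 to form VLA-4, a receptor of VCAM-1 and fibronectin, and with Itga5 to form the main fibronectin receptor. Macrophages use these receptors to arrest on vessel walls, to enter tissue and to hold on to the cells they engulf, and CD44 binds hyaluronan in the matrix around them. The data are transcript levels, and no protein or surface level was measured.

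The libraries held 14752400 to 17312255 reads on genes each. The label was checked against marker genes. Of 10 macrophage markers, 9 had a mean of at least 1 FPKM in every group, while Mertk was at 0 in all libraries. The summed level of these markers ranged over 2826 to 3980 FPKM in control, 4030 to 4254 FPKM in LPS and 3403 to 5685 FPKM in LPS + G-CDs libraries. The sum hides opposite moves. With LPS, 3 of the 9 tested markers were called higher (Adgre1, Cd14 and Itgam) and 2 lower (Csf1r and Lyz2), at limma adjusted p under 0.05. Over all tested genes, 15.8% and 15.6% were. Cd14 alone had a mean of 436 FPKM in control and 2292 FPKM in LPS cells. Of 8 endothelial markers only Egfl7 reached a mean of 1 FPKM, with the sum of the list at 5.27 FPKM or less in every library, and none of 7 fibroblast or 8 lymphocyte markers did, their sums being at most 0.171 and 0.542 FPKM. Libraries within the control and LPS + G-CDs groups differed by gene length. Among the 1159 longest genes, with a median length of 11447 bases, the median deviation from the group mean was 0.328, −0.019 and −0.313 (log2) in LPS + G-CDs replicates 1, 2 and 3 and 0.123, 0.152 and −0.270 in control replicates 1, 2 and 3, against −0.038 to 0.021 in the LPS libraries. Itga4 (13978 bases) and Itgav (10744 bases) are the longest of the 9 genes, and their results are therefore also given with the length trend removed from each library. In these bulk libraries, fewer cells with a transcript and less of it per cell cannot be told apart.

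The sequences upstream of 4 genes are shown because these genes moved furthest or in opposite directions across the groups. Each is the 250 bases before the RefSeq transcription start, in the direction of the gene, from the RefSeq table of assembly GRCm38.p6, which held 6 of the 9 genes (Vcam1, Itgal and Itgb2 were not matched). Both strands were searched for 4 motifs, and capitals mark the matches. The motifs were GGANNTTCC (NF-kB), GAGGAAG (PU.1), TGANTCA (AP-1) and TGACNNNGC (the antioxidant response element bound by Nrf2). They were found in 3.58%, 10.6%, 6.75% and 10.2% of 32817 promoter windows of the same length. The sequences lie at chr9:21015690-21015939 on the plus strand (Icam1), chr15:103366792-103367041 on the minus strand (Itga5), chr2:102901666-102901915 on the minus strand (Cd44) and chr2:79255176-79255425 on the plus strand (Itga4).
Icam1: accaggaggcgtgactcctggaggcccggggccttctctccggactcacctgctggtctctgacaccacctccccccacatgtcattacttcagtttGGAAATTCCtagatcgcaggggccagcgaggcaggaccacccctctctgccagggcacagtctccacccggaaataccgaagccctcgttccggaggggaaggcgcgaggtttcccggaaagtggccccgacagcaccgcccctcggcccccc
Itga5: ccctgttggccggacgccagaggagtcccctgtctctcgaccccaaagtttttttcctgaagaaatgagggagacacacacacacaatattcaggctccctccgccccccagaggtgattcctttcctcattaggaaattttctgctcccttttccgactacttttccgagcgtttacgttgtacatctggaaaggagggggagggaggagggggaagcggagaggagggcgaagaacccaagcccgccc
Cd44: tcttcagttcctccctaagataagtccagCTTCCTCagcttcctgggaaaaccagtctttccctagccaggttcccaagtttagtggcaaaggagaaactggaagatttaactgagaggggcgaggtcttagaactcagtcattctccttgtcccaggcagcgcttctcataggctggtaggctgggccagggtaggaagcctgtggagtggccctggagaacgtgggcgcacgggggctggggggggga
Itga4: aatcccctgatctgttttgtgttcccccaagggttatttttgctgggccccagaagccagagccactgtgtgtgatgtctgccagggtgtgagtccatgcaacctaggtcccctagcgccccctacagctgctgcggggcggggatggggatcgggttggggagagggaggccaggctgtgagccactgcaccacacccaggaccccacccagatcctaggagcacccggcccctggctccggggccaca
The Icam1 window held an NF-kB match from −153 to −145, counted from the RefSeq start site. For Icam1 and Itga5 the bases just after that start were not found in the GENCODE transcripts of the gene, while for Cd44 and Itga4 they were. Positions in the Icam1 and Itga5 windows thus depend on the start used. The Cd44 window held a PU.1 match from −221 to −215, read on the opposite strand. The Itga4 and Itga5 windows held none of the 4 motifs, which says only that these letters were absent from these windows. Of the windows not printed, that of Itgav held a PU.1 match from −8 to −2 and that of Itgb1 an antioxidant response element match from −21 to −13. A match is only a stretch of letters, and binding was not measured.

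**Figure D1:**
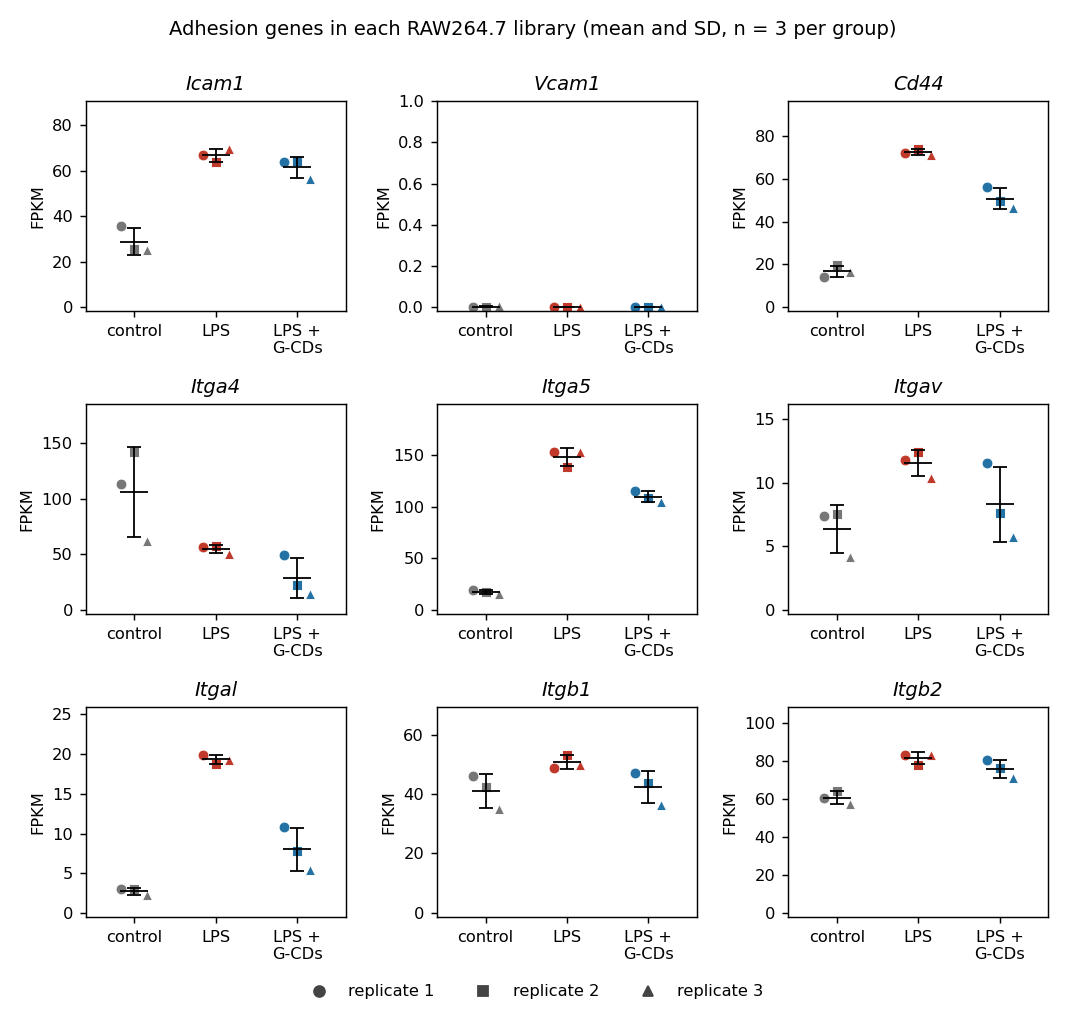
FPKM of the 9 genes in each of the 9 libraries, 1 panel per gene, with horizontal lines at the group mean and error bars of 1 SD (n = 3 per group); the marker shape gives the replicate number and each panel has its own vertical axis from 0. Itga5, Cd44, Itgal and Icam1 lie far above control in all 3 LPS libraries, Itga4 lies below control, and the Vcam1 panel stays at or near 0.

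Icam1 (ENSMUSG00000037405, GRCm38 chromosome 9, 21015985 to 21028817, plus strand) encodes ICAM-1, the counter-receptor of LFA-1 and Mac-1. It was present at 35.6, 25.6 and 25.3 FPKM in control replicates 1, 2 and 3, at 66.8, 64.0 and 69.7 FPKM in the LPS libraries and at 63.7, 64.5 and 56.2 FPKM in the LPS + G-CDs libraries. Every LPS library lay above every control library, and the LPS and LPS + G-CDs libraries overlapped. The group means were 28.8 ± 5.84, 66.8 ± 2.86 and 61.5 ± 4.55 FPKM (SD, n = 3). Icam1 rose 2.32-fold with LPS, or by 1.20 in log2(FPKM + 1) (SE 0.15, limma adjusted p = 0.00036). Between LPS + G-CDs and LPS the log2 difference was −0.12, with a 95% interval from −0.46 to 0.22 (limma adjusted p = 0.63). Icam1 overlaps the antisense gene Gm47079, which had at most 0.229 FPKM, and 18.6% of the 50-base words of its longest transcript also occur in other genes. Whether reads were counted by strand is not given in the sources used here, so part of its reads may be uncertain.

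Vcam1 (ENSMUSG00000027962, chromosome 3, 116109949 to 116129688, minus strand), which encodes the VLA-4 ligand of activated endothelium, was not detectable at this depth. It had 1 read in control replicate 3 (0.00633 FPKM) and was at 0 in the other 8 libraries. A count of 0 allows up to 3 reads, which is 0.018 to 0.0245 FPKM depending on the library and covers counting error only. Vcam1 was therefore left out of the tests, and no fold change is given. Madcam1, another Itga4 ligand, was at 0 in all groups, and Vtn, which encodes the Itgav ligand vitronectin, was at 0 in all 9 libraries.

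Cd44 (ENSMUSG00000005087, chromosome 2, 102811141 to 102901665, minus strand) stood at 14.2, 19.5 and 16.6 FPKM in control, 72.1, 74.2 and 71.5 FPKM in LPS and 56.1, 49.7 and 46.5 FPKM in LPS + G-CDs libraries. The 3 groups did not overlap, and the LPS + G-CDs libraries lay between the other two groups. With LPS, Cd44 rose 4.33-fold, from 16.8 ± 2.67 to 72.6 ± 1.42 FPKM (SD, n = 3), or by 2.06 in log2(FPKM + 1) (SE 0.14, limma adjusted p = 7.5e-06). The LPS + G-CDs mean was 50.8 ± 4.93 FPKM (SD, n = 3), a log2 difference of −0.51 from LPS with a 95% interval from −0.82 to −0.20. This difference did not pass the test once adjusted over all genes (limma adjusted p = 0.2), and the adjusted p stayed between 0.059 and 0.58 over 18 alternative analyses with other pseudocounts, filters, scalings, models or 1 library left out. Against control, Cd44 was higher in LPS + G-CDs cells by 1.55 (log2, limma adjusted p = 5.3e-05).

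Itga5 (ENSMUSG00000000555, chromosome 15, 103344286 to 103366763, minus strand), the alpha subunit of the fibronectin receptor, had the largest fold change of the 8 tested genes with LPS on the log2(FPKM + 1) scale. It measured 19.0, 17.7 and 15.6 FPKM in control, 153, 138 and 153 FPKM in LPS and 115, 108 and 105 FPKM in LPS + G-CDs libraries. The groups did not overlap, and as for Cd44 the LPS + G-CDs libraries sat between control and LPS but nearer to LPS. The rise with LPS was 8.51-fold, from 17.4 ± 1.75 to 148 ± 8.53 FPKM (SD, n = 3), or by 3.02 in log2(FPKM + 1) (SE 0.12, limma adjusted p = 3e-07). By mean level it moved from place 3041 among the 11585 tested genes in control to place 315 in LPS and 531 in LPS + G-CDs cells. Between LPS + G-CDs (109.6 ± 5.34 FPKM, SD, n = 3) and LPS the log2 difference was −0.43, with a 95% interval from −0.71 to −0.16 (limma adjusted p = 0.21). Against control Itga5 was still higher in LPS + G-CDs cells by 2.59 (log2, limma adjusted p = 7.5e-07).

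Itgal (ENSMUSG00000030830, chromosome 7, 127296260 to 127335138, plus strand), the alpha subunit of LFA-1, was the least abundant of the 8 tested genes in control cells, at 2.95, 2.96 and 2.24 FPKM. It stood at 19.9, 18.8 and 19.3 FPKM in LPS and at 10.8, 7.74 and 5.43 FPKM in LPS + G-CDs libraries. The 3 groups were separate, and every LPS + G-CDs library lay under every LPS library. Itgal rose 7.13-fold with LPS, from 2.72 ± 0.412 to 19.3 ± 0.565 FPKM (SD, n = 3), or by 2.46 in log2(FPKM + 1) (SE 0.20, limma adjusted p = 2.8e-05). It fell to 8.002 ± 2.71 FPKM (SD, n = 3) in LPS + G-CDs cells, by 1.22 on the log2 scale against LPS (standard error 0.20, limma adjusted p = 0.047), so that the LPS mean was 2.42 times the LPS + G-CDs mean. This call lies close to the threshold. It was kept in 8 of the 18 alternative analyses, the adjusted p ranging from 0.011 to 0.25, and it was lost without any 1 of the LPS libraries (0.2 to 0.25), without LPS + G-CDs replicate 2 (0.23) and without replicate 3 (0.068), while its difference stayed negative in all 18. With the length trend removed the adjusted p was 0.012. Itgal remained higher than in control, by 1.24 (log2, limma adjusted p = 0.0022).

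Itga4 (ENSMUSG00000027009, chromosome 2, 79255426 to 79333123, plus strand), the alpha subunit of VLA-4, was the 1 tested member with lower means in both treated groups. Its control libraries held 113, 142 and 62.0 FPKM, its LPS libraries 57.0, 57.4 and 50.5 FPKM and its LPS + G-CDs libraries 49.4, 22.8 and 14.6 FPKM. The lowest control library stood close above the highest LPS library, and all LPS + G-CDs libraries lay under all LPS libraries, with a wide spread within the control and LPS + G-CDs groups. The means were 106 ± 40.7, 54.9 ± 3.89 and 29.0 ± 18.2 FPKM (SD, n = 3). Neither single step passed the test, with log2 differences of −0.86 for LPS against control (95% interval −1.81 to 0.10, limma adjusted p = 0.16) and −1.07 for LPS + G-CDs against LPS (95% interval −2.03 to −0.11, limma adjusted p = 0.32). Against control, Itga4 fell by 1.93 on the log2 scale in LPS + G-CDs cells (standard error 0.42, limma adjusted p = 0.0097), a call kept in all 18 alternatives. The high and low libraries of Itga4 were those that were high and low for long genes in general. With the length trend removed, its fall with LPS passed the test at −1.10 (log2, limma adjusted p = 0.009), its difference between LPS + G-CDs and LPS was −0.72 (adjusted p = 0.25) and its fall against control was −1.82 (adjusted p = 0.00069). Itga4 shares 10.9% of its 50-base words with other genes and overlaps Cerkl on the opposite strand, which had 0.178 to 0.606 FPKM.

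Itgav (ENSMUSG00000027087, chromosome 2, 83724397 to 83806916, plus strand) encodes the alpha subunit of the vitronectin receptors. Its levels were 7.43, 7.53 and 4.16 FPKM in control, 11.8, 12.5 and 10.4 FPKM in LPS and 11.6, 7.65 and 5.76 FPKM in LPS + G-CDs libraries. LPS and control were separate, and the LPS + G-CDs libraries overlapped both. The mean rose 1.81-fold with LPS, from 6.37 ± 1.92 to 11.6 ± 1.04 FPKM (SD, n = 3), or by 0.80 in log2(FPKM + 1) (SE 0.26, limma adjusted p = 0.043). The call was kept in 11 of 18 alternatives and was lost under TPM (0.61, adjusted p = 0.25), with no filter (0.096), without control replicate 1 (0.053), without control replicate 3 (0.12) and without any 1 of the LPS libraries (0.08 to 0.13), and with the length trend removed the value was 0.62 (log2, adjusted p = 0.0062). Between LPS + G-CDs (8.32 ± 2.96 FPKM, SD, n = 3) and LPS the difference was −0.47 (log2, 95% interval −1.06 to 0.11, limma adjusted p = 0.35), and −0.20 with the length trend removed (adjusted p = 0.43).

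Itgb1 (ENSMUSG00000025809, chromosome 8, 128685654 to 128733200, plus strand), the common partner of Itga4, Itga5 and Itgav, had no called difference in the 3 comparisons. It was measured at 46.1, 42.5 and 34.8 FPKM in control, 48.9, 53.3 and 49.9 FPKM in LPS and 47.1, 43.6 and 36.3 FPKM in LPS + G-CDs libraries. The LPS libraries were the highest, and the control and LPS + G-CDs libraries overlapped. No comparison of Itgb1 passed the test, with log2 differences of 0.30 for LPS against control (95% interval −0.03 to 0.63, limma adjusted p = 0.15), −0.26 for LPS + G-CDs against LPS (95% interval −0.59 to 0.07, adjusted p = 0.35) and 0.04 for LPS + G-CDs against control (95% interval −0.29 to 0.37, adjusted p = 0.86), the last of which changed sign under TPM and quantile scaling. With the replicate block and the length trend removed together, its rise with LPS passed the test at 0.35 (log2, adjusted p = 0.046).

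Itgb2 (ENSMUSG00000000290, chromosome 10, 77530252 to 77565708, plus strand), the beta subunit of the leukocyte integrins LFA-1 and Mac-1, was at 60.7, 63.9 and 57.1 FPKM in control, 82.9, 77.7 and 83.3 FPKM in LPS and 80.5, 76.3 and 70.9 FPKM in LPS + G-CDs libraries. Both treated groups lay wholly above control and overlapped each other. Itgb2 rose 1.34-fold with LPS, from 60.6 ± 3.42 to 81.3 ± 3.10 FPKM (SD, n = 3), or by 0.42 in log2(FPKM + 1) (SE 0.11, limma adjusted p = 0.021). This small rise was kept in 12 of 18 alternatives and was lost under TPM (0.16, adjusted p = 0.56) and quantile scaling, without control replicate 3 (0.063) and without any 1 of the LPS libraries (0.057 to 0.087). Against LPS the LPS + G-CDs mean (75.9 ± 4.81 FPKM, SD, n = 3) differed by −0.10 (log2, 95% interval −0.35 to 0.16, limma adjusted p = 0.59).

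Across the members, 6 of the 8 tested genes rose with LPS (Icam1, Cd44, Itga5, Itgal, Itgav and Itgb2), where 15.8% of all tested genes were called higher. With any 1 library left out this count was between 4 and 6, with Itgav and Itgb2 being the genes that dropped out. None of the 8 was called lower in limma, where 15.6% of all genes were, and the count was also 0 at an unadjusted p under 0.05 (20.8% of all genes) and with limma voom on the reads. Every LPS library lay above every control library for 7 members (27.4% of all genes) and below for Itga4 (25.1% of all genes). The members' median log2 fold change was 1.00, beside 0.02 over all genes tested.

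Between LPS + G-CDs and LPS, 1 of the 8 members fell (Itgal), where 0.242% of all tested genes were called lower. None was called higher in limma, where 0.25% of all genes were, and the count was 0 at an unadjusted p under 0.05 (7.19% of all genes) and with voom as well. At an unadjusted p under 0.05, 4 members were lower (Cd44, Itga4, Itga5 and Itgal), where 8.04% of all genes were. All 8 differences were below 0, with a median of −0.45 beside 0.02 over all genes, and for 5 members (Cd44, Itga4, Itga5, Itgal and Itgb1) every LPS + G-CDs library lay under every LPS library, where 15% of all genes did so. For none did every LPS + G-CDs library lie above, where 12.9% of all genes did. The count of 1 was kept without LPS + G-CDs replicate 1 and was 0 without replicate 2 or 3 or any LPS library. This comparison shares its LPS libraries with the one before.

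LPS + G-CDs cells were also compared with control, sharing the libraries of both other comparisons. Icam1, Cd44, Itga5 and Itgal were higher and Itga4 lower, 4 and 1 of 8 members where 12.8% and 12.4% of all genes were called in these directions. Itgav (0.33, log2), Itgb1 (0.04) and Itgb2 (0.32) did not pass (limma adjusted p = 0.4, 0.86 and 0.07), and all 3 values changed sign under TPM. With the length trend removed Itgav was called higher than control, at 0.43 (log2, adjusted p = 0.041, or 0.017 with the replicate block as well). The libraries lay wholly above control for 5 members (17.7% of all genes), Itgb2 being the fifth, and wholly below for Itga4 (16.6% of all genes). The counts of 4 and 1 were kept without any 1 of the libraries.

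**Figure D2:**
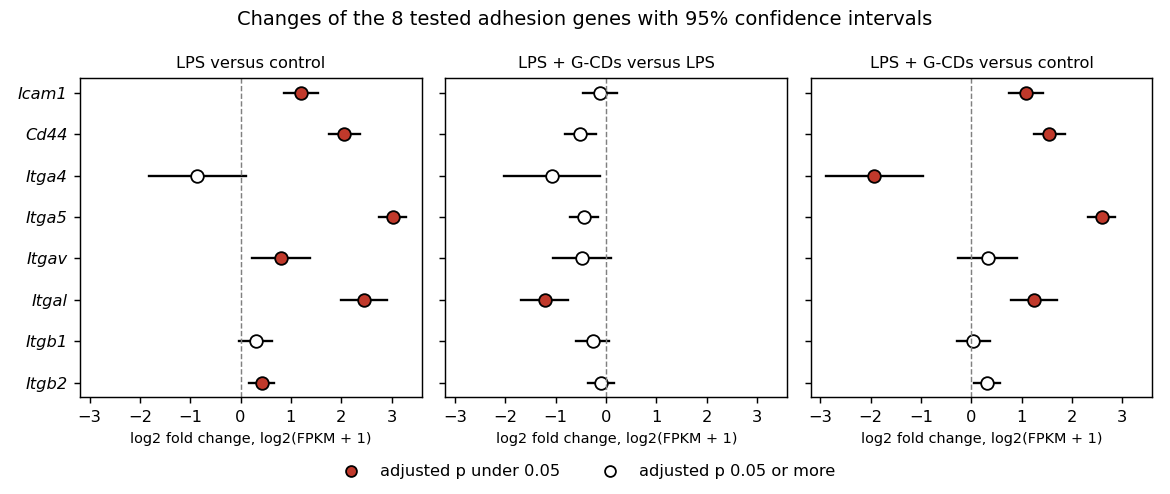
Log2 fold changes on the log2(FPKM + 1) scale for the 8 tested genes in the 3 comparisons, with 95% confidence intervals from limma; filled points have an adjusted p under 0.05. With LPS 6 points are filled to the right of 0, in LPS + G-CDs against LPS all 8 points lie left of 0 with only Itgal filled, and in LPS + G-CDs against control the open points of Itgav, Itgb1 and Itgb2 change sign under TPM.

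The order of the levels on the FPKM scale changed with LPS. FPKM is divided by the deposited length of each gene, and the order between genes depends on that length. In control cells the order of mean FPKM was Itga4, Itgb2, Itgb1, Icam1, Itga5, Cd44, Itgav, Itgal and Vcam1. Neighbours whose libraries overlapped there were Itga4 and Itgb2, Itgb1 and Icam1, and Itga5 and Cd44. In LPS cells the order was Itga5, Itgb2, Cd44, Icam1, Itga4, Itgb1, Itgal, Itgav and Vcam1, and only Itga4 and Itgb1 overlapped among neighbours. In LPS + G-CDs cells it was Itga5, Itgb2, Icam1, Cd44, Itgb1, Itga4, Itgav, Itgal and Vcam1, with overlaps between Cd44 and Itgb1, Itgb1 and Itga4, and Itgav and Itgal. Itga4 thus went from the top of the order in control to the sixth place in LPS + G-CDs cells, and Itga5 from the fifth place to the first in both treated groups.

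The balance of alpha subunits shifted with these levels. Of the summed FPKM of all 18 alpha subunit genes, Itga4 made up 74.5%, 78.2% and 63.3% in control libraries, 22.2%, 23.6% and 20.2% in LPS libraries and 24.8%, 14.3% and 10.1% in LPS + G-CDs libraries. Itga5 made up 12.7% ± 3.09 in control, 59.3% ± 2.22 in LPS and 66.2% ± 7.57 with LPS + G-CDs (SD, n = 3). The largest share of alpha subunit transcripts on the FPKM scale thus belonged to Itga4 in every control library and to Itga5 in every treated library. The Itga4 level was 5.97, 8.04 and 3.98 times that of Itga5 in control libraries, but 0.372, 0.415 and 0.329 times in LPS and 0.428, 0.210 and 0.139 times in LPS + G-CDs libraries. These shares depend on the scale, since from reads not divided by gene length Itga4 held 85.3%, 41.9% and 32.8% and Itga5 5.39%, 39.9% and 48.6% in the 3 groups, and the ranges of both genes then overlapped in LPS and in LPS + G-CDs cells, with Itga4 above Itga5 in LPS replicates 1 and 2 and in LPS + G-CDs replicate 1.

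Itgal made up 1.95% ± 0.331, 7.75% ± 0.0310 and 4.69% ± 0.848 of alpha subunit FPKM in control, LPS and LPS + G-CDs cells (SD, n = 3), while Itgav stayed at 4.43%, 4.63% and 4.86%. Relative to its partner Itgb2, Itgal stood at 0.0447 ± 0.00487 in control, 0.238 ± 0.00576 in LPS and 0.104 ± 0.0291 with LPS + G-CDs (SD, n = 3), and these ranges did not overlap. Relative to Itgam (CD11b), the other main partner of Itgb2, it stood at 0.342 ± 0.133 in control, 1.55 ± 0.147 in LPS and 0.883 ± 0.332 with LPS + G-CDs (SD, n = 3). Itgal was thus the lower of both in every control library and the higher in every LPS library, and the LPS + G-CDs libraries fell on both sides of 1, at 1.25, 0.7998 and 0.601. Summed over the 18 genes, alpha subunit FPKM was 144 ± 42.6 in control, 249.7 ± 6.74 in LPS and 168 ± 28.4 with LPS + G-CDs (SD, n = 3). Beta subunit FPKM, over 8 genes, varied less, at 121 ± 10.1, 138 ± 1.35 and 127 ± 9.12 (SD, n = 3).

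Among beta subunits, Itgb2 held the largest share of FPKM in every library, with 50.4% ± 3.15 in control, 58.9% ± 1.76 in LPS and 60% ± 0.619 with LPS + G-CDs (SD, n = 3). Itgb1 held 34.0%, 36.7% and 33.4%. From reads not divided by length, Itgb1 was the larger in control replicate 1, with 41.5% against 40.8% for Itgb2. The remainder was mostly Itgb5, a partner of Itgav, which went from 13.2% ± 1.87 in control to 3.03% ± 0.226 in LPS and 5.21% ± 0.978 with LPS + G-CDs (SD, n = 3). Itgb3, the other well-known partner of Itgav, held at most 0.0267% in any library.

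**Figure D3:**
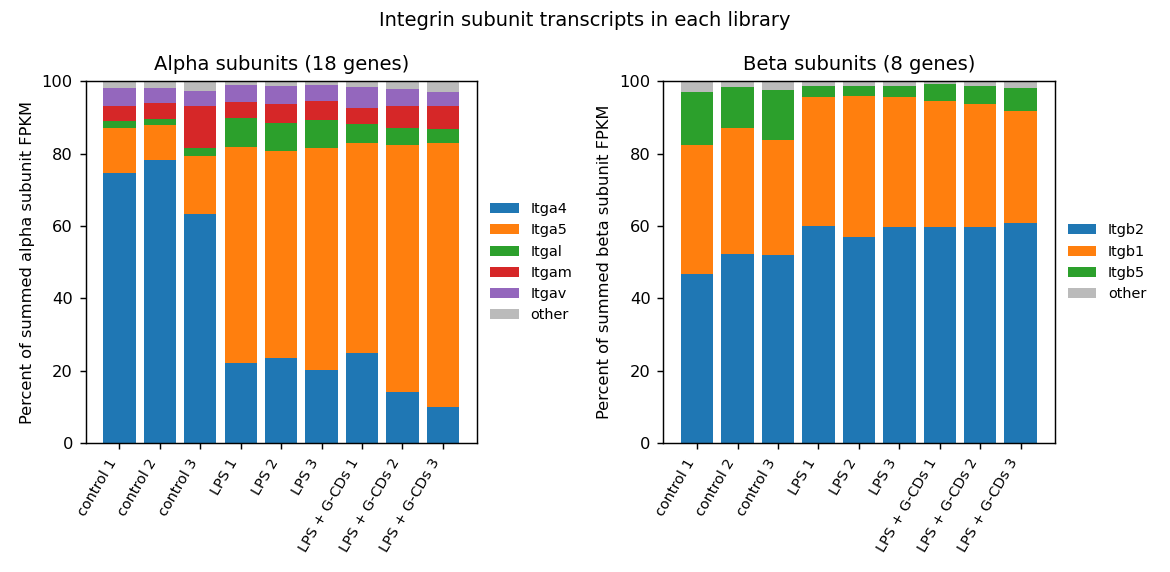
Percent of summed FPKM held by each integrin subunit gene in each of the 9 libraries, for the 18 alpha subunit genes and the 8 beta subunit genes; apart from the members, genes under 5% in every group mean are joined as other. Itga4 fills 63.3% to 78.2% of the alpha bar in control libraries and 10.1% to 24.8% in treated libraries, where Itga5 is the largest segment, while Itgb2 is the largest beta segment in every library.

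The other genes of adhesion were read from 4 lists. Of 20 other integrin subunits, 4 passed the filter on low values. With LPS, Itgam was higher, from 8.59 ± 2.51 to 12.5 ± 0.855 FPKM (SD, n = 3; log2 fold change 0.53, limma adjusted p = 0.048), a call kept in only 8 of 18 alternatives. Itgb5 fell from 15.98 ± 2.92 to 4.19 ± 0.349 FPKM (SD, n = 3), by 1.70 on the log2 scale (limma adjusted p = 3.5e-05), in all 18. In LPS + G-CDs libraries Itgb5 was at 6.00, 6.23 and 7.37 FPKM, above all LPS libraries, but the difference of 0.54 (log2) did not pass (limma adjusted p = 0.2). Itga7, a laminin-binding subunit, was called higher in LPS + G-CDs than in control cells by 0.60 (log2, limma adjusted p = 0.028, kept in 8 of 17 alternatives), but it was under 1 FPKM in every control library and had entered the tests through the treated groups in which it was high.

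Of 32 other surface adhesion molecules, 16 were tested, of which 3 rose and 8 fell with LPS. Over all tested genes, 15.8% and 15.6% were called in these directions. The rises were those of the tetraspanin Cd9 (1.07), of Cd47 (0.96), an integrin-associated protein that binds SIRPα, and of Alcam (0.72), a ligand of CD6. On the log2(FPKM + 1) scale, which understates low genes, the largest falls were those of the tetraspanin Cd151 (−0.81), of Cd99l2 (−0.77) and of Selplg (−0.73), the ligand of P-selectin. Cd151 stood at 5.47, 7.26 and 5.94 FPKM in control, 2.77, 3.28 and 3.26 FPKM in LPS and 5.95, 5.78 and 6.36 FPKM in LPS + G-CDs libraries. The LPS libraries were the low ones and the other two groups overlapped. Cd151 was the 1 gene of this list called between LPS + G-CDs and LPS, where 0.25% of all genes were called higher. It was higher by 0.78 (log2, standard error 0.12, limma adjusted p = 0.04), which held in 5 of 18 alternatives. Against control, LPS + G-CDs cells had 4 genes of the list higher and 5 lower, where 12.8% and 12.4% of all genes were. The higher were led by Cd9 (1.36), Cd47 (1.09) and Ninj1 (0.95, kept in 12 of 18 alternatives), which encodes a surface protein involved in membrane rupture. The lower were led by L1cam (−0.92), Adgre5 (−0.75) and Cadm1 (−0.60). Unlike Cd9 and Cd47, Ninj1 was not higher with LPS alone (−0.17, limma adjusted p = 0.66), at means of 60.9 FPKM in control and 52.6 FPKM in LPS. It stood at 120 FPKM in LPS + G-CDs cells, every library above every LPS library. That difference of 1.13 (log2) did not pass the test (limma adjusted p = 0.15), as in 15 of 18 alternatives. L1cam and Adgre5 reached 1 FPKM only in control libraries. Both, which also made 2 of the 8 falls with LPS, had thus entered the tests through the group in which they were high.

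Of 21 genes of the matrix and of hyaluronan, 5 were tested, of which 3 were called higher with LPS and none lower. Over all tested genes, 15.8% and 15.6% were called in these directions. Spp1, which encodes osteopontin, a ligand of CD44 and of Itgav integrins, rose from 655 ± 115 to 5415 ± 202 FPKM (SD, n = 3; log2 fold change 3.06, limma adjusted p = 1.2e-05) and stood at 4489 ± 671 FPKM in LPS + G-CDs cells. The laminin chain gene Lamc1 rose by 1.81 (log2, adjusted p = 0.0036) and was higher in LPS + G-CDs than in control cells by 1.25 (adjusted p = 0.026, kept in 11 of 18 alternatives). Has1, a hyaluronan synthase, was at 0, 0.0390 and 0.0621 FPKM in control, 1.23, 1.27 and 1.51 FPKM in LPS and 0.260, 0.107 and 0.268 FPKM in LPS + G-CDs libraries. Only its LPS libraries reached the filter value of 1 FPKM, so that the gene, 1 of the 3 called higher with LPS, had entered the tests through the group in which it was high. It was called lower in LPS + G-CDs than in LPS cells by 0.95 on the log2(FPKM + 1) scale (limma adjusted p = 0.024), in 5 of 17 alternatives. Fn1, the fibronectin ligand of Itga5 and Itga4, had at most 0.0235 FPKM and Thbs1 at most 0.0239 FPKM in any library.

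Of 42 genes of integrin activation and its adaptors, 35 were tested, of which 12 were called higher and 2 lower with LPS. Over all tested genes, 15.8% and 15.6% were called in these directions. The 12 include Nedd9, also higher against control in LPS + G-CDs cells, which was under 1 FPKM in every control library and had passed the filter through the treated groups. Fyb, an adaptor of integrin activation in leukocytes, rose by 2.68, the Src family kinase Fgr, which acts downstream of beta 2 integrins, by 2.20, and Rap1b, a small GTPase that switches integrins on, by 1.86 (log2). Cyth1 (−0.53), which encodes a binding partner of the Itgb2 tail, and Rassf5 (−0.49), an effector of Rap1, were lower, the latter in only 9 of 18 alternatives. Fgr was the 1 gene of the list called between LPS + G-CDs and LPS, where 0.242% of all genes were called lower. It stood at 31.9, 28.1 and 29.1 FPKM in LPS and at 17.5, 16.6 and 14.1 FPKM in LPS + G-CDs libraries, above 5.12 to 6.07 FPKM in control. Its log2 fold change against LPS was −0.85 (standard error 0.12, limma adjusted p = 0.024, kept in 11 of 18 alternatives). Of the 35 genes, 27 had a difference below 0 between LPS + G-CDs and LPS, with a median of −0.27 beside 0.02 over all genes, and 16 had every LPS + G-CDs library under every LPS library, where 15% of all genes did. Against control, 9 of the 35 were called higher and 4 lower in LPS + G-CDs cells, where 12.8% and 12.4% of all genes were. Among the higher were Fyb (2.29) and Rap1b (1.69), and the lower included Rassf5 (−0.56), Cyth1 (−0.44) and Parvb (−0.36), whose calls were kept in 13 of 18, 11 of 17 and 8 of 18 alternatives. The 9 include Nedd9 and also Bcar1, which reached 1 FPKM in only 1 control library and had likewise passed the filter through the treated groups.

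Over the 4 lists together, 19 of 60 tested genes were higher and 11 lower with LPS, where 15.8% and 15.6% of all genes were. The 60 include genes that entered the tests through the groups in which they were high, namely Has1, L1cam, Adgre5, Itga7, Nedd9, Bcar1 and Jam2. Jam2 was not called in any comparison. Between LPS + G-CDs and LPS these counts were 1 and 2 of 60, where 0.25% and 0.242% of all genes were. Against control they were 16 and 10, where 12.8% and 12.4% of all genes were.

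**Figure D4:**
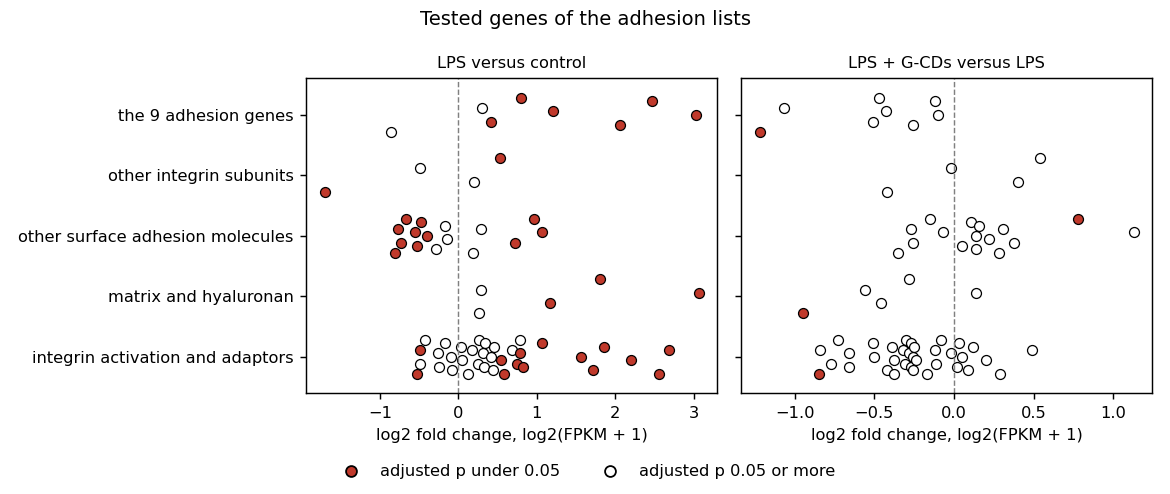
Log2 fold changes on the log2(FPKM + 1) scale of the tested members and of the tested genes of the 4 adhesion lists, for LPS against control and for LPS + G-CDs against LPS, 1 point per gene, filled where the adjusted p was under 0.05; the vertical position within a list only separates points. With LPS the filled points of the members lie right of 0 and those of the other surface adhesion molecules mostly left of it, and against LPS 4 points are filled in all, those of Itgal, Has1, Fgr and Cd151.

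The genes with the profile most like each member were found by Pearson's r of log2(FPKM + 1) over the 9 libraries, which form 3 groups and share their depth and length deviations, so that r is a description only. For Icam1 these were Csrnp1 (0.995), Tnfaip2 (0.994) and Cwc22 (0.993), and for Cd44 they were Egr1 (0.998), Ets2 (0.997) and Lcp2 (0.996). For Itga5 they were Nfkbiz, Il10ra and Wdr1 (0.998 each), and for Itgal they were Gk, Malt1 and Pik3r5 (0.997 each). For Itga4 they were Fgd4 (0.995), Mki67 (0.993), the gene of a protein of dividing cells, and Ttc39b (0.993). For Itgav they were Fndc3b (0.994), Ankfy1 (0.993) and Dcp1a (0.992), for Itgb1 Actr2 (0.987) and Gnai3 (0.985), and for Itgb2 Swt1 (0.989), Tent4a (0.987) and Tox4 (0.987).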

How the data were processed

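Poly(A) RNA of RAW264.7 cells was sequenced on an Illumina instrument, and the authors deposited FPKM values per gene and library with gene coordinates and lengths. The aligner, counter and test are not given in the sources used here. The build is GRCm38 (mm10) per the submitters' processing notes, and the coordinates of the 9 genes equal those of GENCODE. All 9 columns were mapped to samples by name, and 0 columns belonged to other samples.

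Reads were recovered from FPKM and gene length (100.0% whole within 0.05 reads). Depth, voom and the 3-read floor rest on them. The library size the authors divided by was 1.108 to 1.14 times the reads on genes in control, 0.929 to 0.936 times in LPS and 0.88 to 0.98 times in LPS + G-CDs libraries, so the deposited values hold a scaling between groups.

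The test, run over all genes reaching 1 FPKM in 3 or more libraries, was limma (version 3.58.1, R 4.3.3) on log2(FPKM + 1), with 1 linear model of the 3 groups, eBayes with a trend, two-sided p-values, Benjamini-Hochberg adjustment and a threshold of 0.05. Fold changes on this scale understate those of low genes, and ratios are of mean FPKM. Tables were prepared with Python 3.11.15 and pandas 2.3.3. On simulated data for LPS + G-CDs against LPS (11585 genes, 200 changed) the test found 48% of 2-fold and 87% of 4-fold changes, and 7.53% of its calls were unchanged genes. The simulated noise was independent between libraries, with the same spread in every group and no length trend. The real libraries differ in both, so these shares need not hold for them.

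The members, gene lists and motifs were chosen with earlier results of these data known. Named were all members, up to 3 rises and 3 falls per list and comparison that passed the test with no overlap between groups, integrin subunits holding at least 5% of alpha or beta FPKM, marker genes and the 3 genes most like each member by Pearson's r. Some genes that the rule names are not reported here. Rap1b with LPS, Nedd9, Bcar1, Jam2, Itgb3, Egfl7, Mertk, Fn1, Thbs1, Vtn and Madcam1 were named from the lists after their values were seen.

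The labels number replicates 1 to 3 in each group and give them no meaning. After removal of the group mean, the correlation between LPS and control libraries of 1 number was 0.103, 0.137 and 0.113, all over 0.1. The LPS + G-CDs libraries correlated with LPS at 0.095, 0.080 and 0.143 and with control at 0.280, 0.057 and 0.653. These mostly low and uneven values do not settle whether the numbers pair the libraries. The main model held no pairing, and the replicate block was run as an alternative only. Alternatives were a pseudocount of 0.1, no filter, a filter of 5 FPKM, 3 other scalings (TPM, median-of-ratios, quantile), a fit to the 6 libraries compared, no eBayes trend, voom, a replicate block, removal of the gene-length trend, and each library left out. The block together with removal of the length trend was added after seeing the data.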

Additional observations from a re-analysis of the deposited data

How the results depend on the processing

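Members called higher with LPS numbered 4 to 7 over the alternatives, and Icam1, Cd44, Itga5 and Itgal kept that call in all 18. The member called lower between LPS + G-CDs and LPS (Itgal) dropped out, giving 0, with a pseudocount of 0.1, no filter, TPM, median-of-ratios scaling or the 6 libraries alone, and the count was 0 to 1 with 1 library left out. The cause was not tested. With the length trend removed, with or without the replicate block, 1 member (Itga4) was lower with LPS. The block alone changed no member's call and moved the calls over all genes to 2115 higher and 1989 lower for LPS against control, 28 and 25 for LPS + G-CDs against LPS and 1729 and 1618 for LPS + G-CDs against control. In LPS + G-CDs against control the sign of Itgav turned under TPM (−0.058), that of Itgb2 under TPM (−0.114) and that of Itgb1 under TPM (−0.392), quantile scaling (−0.169), without control replicate 3 (−0.069) and without LPS + G-CDs replicate 1 (−0.036), with a range of −0.069 to 0.147 with 1 library left out, the turned values all at adjusted p = 0.22 or more. TPM moved the median of all genes to −0.23, −0.14 and −0.38 (log2) in the 3 comparisons.

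Over all genes, LPS against control gave 1827 higher and 1803 lower, with 1003 and 3059 under TPM, 1177 lower under the stricter filter, and 1285 to 1699 higher and 1189 to 1597 lower with 1 library left out. LPS + G-CDs against LPS gave 29 higher and 28 lower, with 18 and 7 at a pseudocount of 0.1, 18 higher with no filter, 16 and 11 under TPM, 14 and 11 from the 6 libraries alone, 53 lower with the length trend removed and 47 lower with the block as well. With 1 library left out it gave 7 to 106 higher and 4 to 150 lower, the highest of each without LPS + G-CDs replicate 1. LPS + G-CDs against control gave 1488 and 1439, with 761 and 3218 under TPM, 951 and 838 from the 6 libraries alone, 943 lower under the stricter filter, and 1017 to 1686 higher and 897 to 1559 lower with 1 library left out. From reads not divided by length, Itga4 held 85.3%, 41.9% and 32.8% of alpha subunits in control, LPS and LPS + G-CDs cells, against 72.0%, 22.0% and 16.4% from FPKM, and Itga5 held 5.39%, 39.9% and 48.6%, against 12.7%, 59.3% and 66.2%. Each tested member had 262 or more reads in every library, and depth limits only Vcam1.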
